A study of Mus musculus with 2 samples.

Results

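The vascular endothelial growth factor (VEGF) system was described here through 9 genes, chosen by symbol from the 43346 in the gene tables. They comprise 4 ligand genes (Vegfa, Vegfb, Vegfc and Pgf), 3 receptor tyrosine kinase genes (Flt1, Kdr and Flt4) and 2 co-receptor genes (Nrp1 and Nrp2). All 9 were found in both libraries, and all 9 passed the filter of a mean of at least 1 TPM, the unit of level used throughout, which corrects for transcript length and sequencing depth. Their levels are given first, followed by their transcripts and splice junctions and by the other genes of the pathway.

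Poly(A) RNA longer than 200 nt was sequenced from whole mammary gland in 2 libraries, which the labels call biological replicates 1 and 2 of 1 group. The mice were C57BL/6J, an inbred laboratory strain, 8 weeks old, and the labels name no treatment. Each library is labelled as pooled from males and females of mixed-sex litters, and neither the number of animals nor their reproductive state is stated in the labels. Both libraries point to the same donor record but to different tissue samples, so the spread between them may be biological or technical. There was no contrast to test: comparisons between the libraries describe 2 samples, carry no p-value, and give replicate 1 over replicate 2. Over all genes the expected counts came to 56323489 fragments for replicate 1 and 42400470 for replicate 2.

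VEGF ligands are secreted dimers that bind receptor tyrosine kinases on endothelial cells, the lining of blood and lymph vessels. VEGF-A binds VEGFR1 (gene Flt1) and VEGFR2 (Kdr). VEGFR2 carries most of its growth and permeability signal, while VEGFR1 binds it tightly, signals weakly and can act as a decoy. VEGF-B and placental growth factor (PlGF, gene Pgf) bind VEGFR1, and VEGF-C binds VEGFR3 (Flt4), the main receptor of lymphatic endothelium. The neuropilins are co-receptors that also bind class 3 semaphorins. Alternative splicing sets whether VEGF-A is held by heparan sulphate at the cell surface or diffuses, and whether VEGFR1 is a membrane kinase or a soluble trap. In the mammary gland, VEGF made by fat and epithelium is known to act on the vessels of the fat pad.

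The splice variants of Vegfa differ in exons 6 and 7, which encode the heparin-binding parts of the protein. The coding ends of 4 transcripts are printed below because the tables and the junction reads differ on which of them was used. Each line runs from exon 5 (chr17:46024065-46024094, mm10, minus strand) to the stop codon in exon 8 (chr17:46018858-46018879). Capitals mark exon 6 (chr17:46022277-46022348, 72 bases) and exon 7 (chr17:46020991-46021122, 132 bases) where present. The sequences are those of the GENCODE M21 transcripts.
Vegfa-201, neither exon: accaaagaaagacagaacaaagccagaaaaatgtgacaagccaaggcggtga
Vegfa-202, exon 7: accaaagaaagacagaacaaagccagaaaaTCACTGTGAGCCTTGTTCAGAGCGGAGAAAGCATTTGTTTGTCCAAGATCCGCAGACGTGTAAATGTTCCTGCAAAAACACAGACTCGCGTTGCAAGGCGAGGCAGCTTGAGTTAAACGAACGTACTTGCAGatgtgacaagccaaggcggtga
Vegfa-207, exons 6 and 7: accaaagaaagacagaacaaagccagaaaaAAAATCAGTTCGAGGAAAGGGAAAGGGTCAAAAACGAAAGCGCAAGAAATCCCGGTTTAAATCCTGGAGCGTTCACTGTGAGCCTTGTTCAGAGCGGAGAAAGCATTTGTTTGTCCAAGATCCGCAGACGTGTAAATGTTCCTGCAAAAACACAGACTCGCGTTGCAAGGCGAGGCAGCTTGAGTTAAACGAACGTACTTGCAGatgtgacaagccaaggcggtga
Vegfa-203, exon 6: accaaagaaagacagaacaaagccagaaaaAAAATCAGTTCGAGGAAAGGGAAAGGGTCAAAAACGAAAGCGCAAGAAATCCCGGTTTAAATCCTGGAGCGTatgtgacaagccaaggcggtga

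Vegfa was the most abundant of the 9 genes. Its level (chromosome 17, 46016993 to 46032369, mm10) was 255.6 TPM in replicate 1 and 216.7 TPM in replicate 2, a mean of 236 ± 27.5 TPM (SD, n = 2), above 96.3% of the 14510 genes with a mean of at least 1 TPM. Vegfb, whose product binds VEGFR1 alone among the kinases (chromosome 19, 6982473 to 6987651), was second at 71.4 TPM in replicate 1 and 117 TPM in replicate 2, or 94.2 ± 32.4 TPM (SD, n = 2). The other ligands were far lower. Vegfc, the lymphatic growth factor (chromosome 8, 54077606 to 54187096), had 4.48 TPM in replicate 1 and 2.95 TPM in replicate 2. Pgf (chromosome 12, 85166635 to 85177790) had 3.04 TPM in replicate 1 and 1.97 TPM in replicate 2, the lowest level of the 9 genes. The lower replicate of Vegfc lay below the higher replicate of Pgf, so the spread did not separate these levels, although Vegfc was higher in both libraries. Vegfa made up 76.4% of the summed TPM of the 4 ligands in replicate 1 and 64.0% in replicate 2. In replicate 1, 84.98 TPM of the Vegfa level was assigned to the short transcript Vegfa-203, whose own junction was not listed, as given below. The Vegfa level, this share and the ligand sum of replicate 1 include that amount.

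Among the receptor kinases Kdr stood above the others. Kdr (chromosome 5, 75932827 to 75978458), the main signalling receptor, had 22.01 TPM in replicate 1 and 17.3 TPM in replicate 2. Flt1 (chromosome 5, 147561604 to 147726011) had 6.95 TPM in replicate 1 and 6.90 TPM in replicate 2, the closest pair of TPM values of the 9 genes. Of the level in replicate 2, 0.92 TPM was assigned to the non-coding transcript Flt1-201, which had 0 TPM in replicate 1. The own last intron of Flt1-201 was not listed among the junctions, as given below. By fragments scaled to total counts, the log2 ratio was 0.23 for Flt1, with a counting interval of 0.12 to 0.33. On that scale Nrp2 was the closest, at -0.05. Flt4 (chromosome 11, 49609263 to 49652739) had 6.41 TPM in replicate 1 and 8.99 TPM in replicate 2. Flt1 and Flt4 changed places between the libraries, and their ranges overlapped. The ratio of Flt1 to Kdr was 0.316 in replicate 1 and 0.399 in replicate 2, so the decoy receptor gene was below the signalling receptor gene in both. The ratio in replicate 2 includes the TPM assigned to Flt1-201.

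The summed level of the co-receptors exceeded that of the kinases in both libraries. Nrp1 (chromosome 8, 128358604 to 128503363), the neuropilin that pairs with VEGFR2, had 36.0 TPM in replicate 1 and 24.6 TPM in replicate 2. Nrp2 (chromosome 1, 62703285 to 62818695), which also pairs with VEGFR3, had 14.2 TPM in replicate 1 and 15.8 TPM in replicate 2. Nrp1 exceeded Nrp2 by a ratio of 2.54 in replicate 1 and 1.56 in replicate 2. Summed over genes, the ligands reached 334.5 TPM in replicate 1 and 338.8 TPM in replicate 2, the kinases 35.4 and 33.2 TPM, and the co-receptors 50.2 and 40.4 TPM. The order of mean levels was Vegfa, Vegfb, Nrp1, Kdr, Nrp2, Flt4, Flt1, Vegfc and Pgf, and neighbours in it had separate ranges except Flt4 with Flt1 and Vegfc with Pgf. In whole tissue, more cells of a type and more RNA per cell cannot be told apart.

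**Figure D1:**
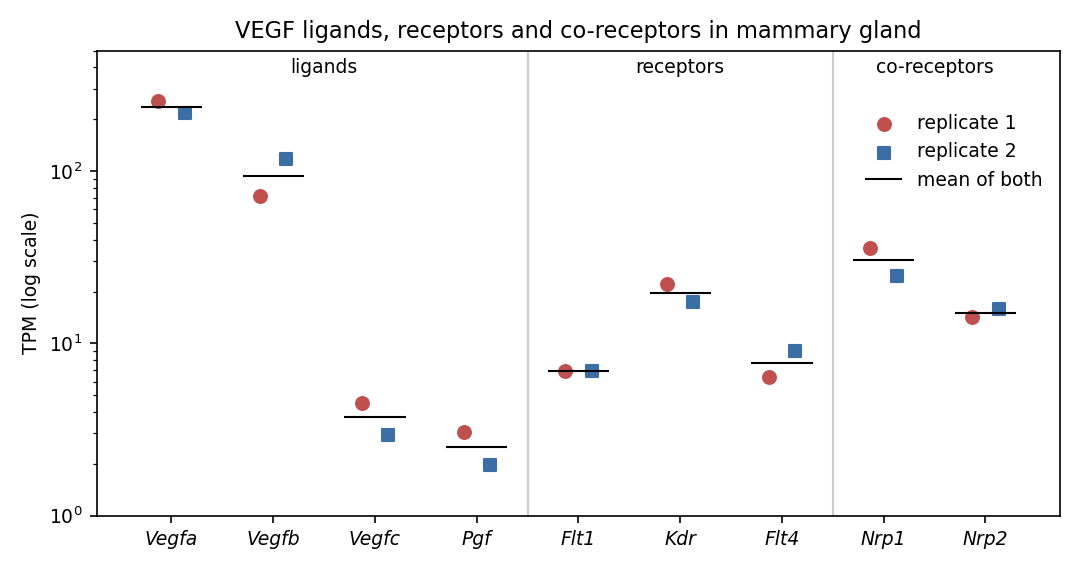
Level of each gene in TPM (vertical axis, log scale) in replicate 1 (circles) and replicate 2 (squares), with the mean of both as a line. Vegfa and Vegfb lie above every receptor, Kdr above Flt1 and Flt4, and Vegfc and Pgf lowest.

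None of the 9 genes differed beyond 2-fold between the libraries. A gene counted as beyond 2-fold where the whole 95% Clopper-Pearson interval of its count ratio, which covers counting error only, lay past that fold, and this held for 0 of 9 members against 18.2% of the 14510 genes. At 1.5-fold the count was 1 of 9, against 39.8% of all genes, and that gene was Vegfb. Vegfb had 3098 fragments in replicate 1 and 3721 in replicate 2, a log2 count ratio of -0.67 (95% interval -0.74 to -0.60). Nrp1 had 8848 fragments in replicate 1 and 4308 in replicate 2, a log2 count ratio of 0.63 (0.58 to 0.68). Both genes therefore differed past counting error, in opposite directions. Kdr had 5293 and 2962 fragments in replicates 1 and 2, a log2 count ratio of 0.43 (0.36 to 0.49), and Flt4 had 1660 and 1658, a ratio of -0.41 (-0.51 to -0.31). By total counts Nrp2, with 3731 fragments in replicate 1 and 2910 in replicate 2, was the only member whose interval held 0, at -0.05 (-0.12 to 0.02). These directions are relative to total counts: by spike-in totals each ratio was lower by 0.76, so that all 9 ratios were below 0, and Vegfb and Flt4 were beyond 2-fold. On that scale the intervals of Vegfc, at -0.08 (-0.36 to 0.21), and Pgf, at -0.06 (-0.44 to 0.34), held 0. The rarer ligands were the least precise. Vegfc had 323 fragments in replicate 1 and 151 in replicate 2, a log2 count ratio of 0.69 (0.40 to 0.98), and Pgf had 180 and 83, a ratio of 0.71 (0.32 to 1.10).

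For Vegfa the direction changed with the unit and the scaling. In TPM it was higher in replicate 1, by 0.24 on the log2(TPM + 1) scale. In fragments it had 11919 in replicate 1 and 9789 in replicate 2, a log2 count ratio of -0.13 (95% interval -0.16 to -0.09), so that it was slightly lower in replicate 1 for its library size. With mitochondrial genes and skeletal muscle markers left out of the totals, the log2 count ratio was 0.05 (0.01 to 0.08) for Vegfa and 0.12 (0.05 to 0.19) for Nrp2, the other side of 0 for both. Its effective length, the length over which the authors' quantification spread the fragments, was 1081 nt in replicate 1 and 1470 nt in replicate 2. That length is an average over transcripts, weighted by the shares assigned to them. No other member had opposite signs in TPM and in fragments. Flt1, for example, had 1969 fragments in replicate 1 and 1267 in replicate 2, a log2 count ratio of 0.23.

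The differences of most members lay near those of other genes of the same GC content. The 2 libraries differed with GC content over all genes: the median log2 count ratio was 1.00 in the lowest of 20 bins, at a median of 40.5% GC, and -1.10 in the highest, at 61.4%. The members ran between 45.7% GC for Nrp1 and 59.8% for Vegfb. With the median at their own GC content taken off, the log2 count ratio was 0.03 for Nrp1, 0.05 for Kdr, -0.07 for Flt1, -0.08 for Flt4, 0.15 for Vegfa and 0.17 for Vegfb. These 6 were thus within 0.2 of the median of like genes. Vegfc stood at 0.73, Pgf at 1.03 and Nrp2 at -0.27 on the same scale. The median log2(TPM + 1) difference was 0.24 over the 9 members, against -0.05 over all genes tested, and 0.13 with the GC trend taken off, against 0.00.

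**Figure D2:**
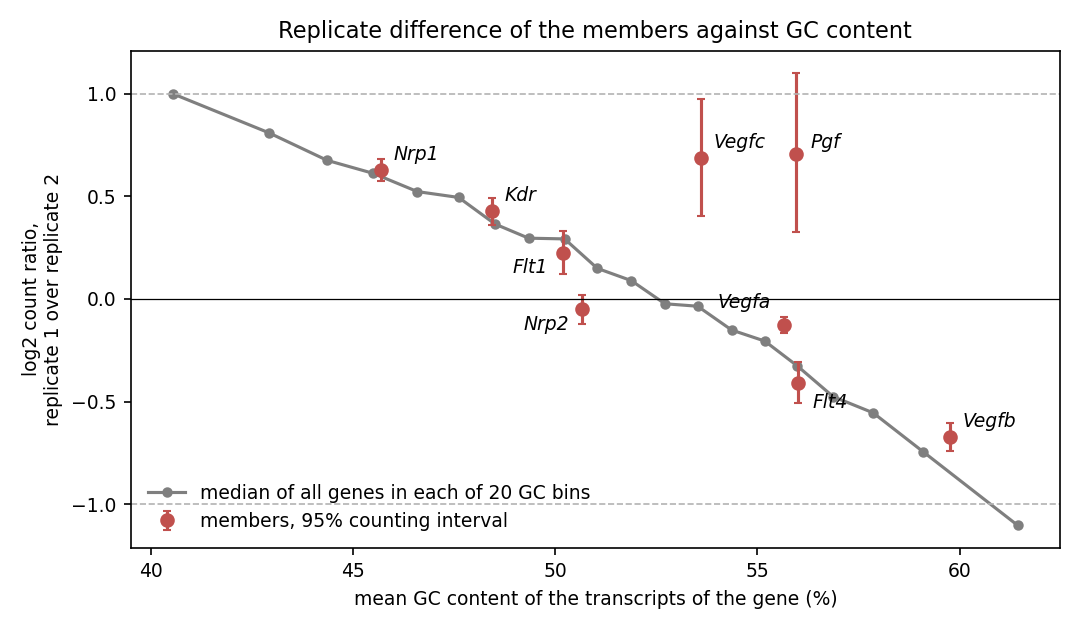
Log2 count ratio of replicate 1 over replicate 2 (vertical axis) against mean GC content of the gene's transcripts in percent (horizontal axis), for the 9 members with 95% counting intervals and for the median of all genes in each of 20 GC bins. Nrp1, Kdr, Flt1, Flt4, Vegfa and Vegfb lie near the line of medians, and Vegfc and Pgf above it. Dashed lines mark 2-fold.

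The transcript tables held 33 transcripts of the 9 genes, 21 of them coding. Vegfc, Pgf and Nrp1 had 1 transcript each (Vegfc-201, Pgf-201 and Nrp1-201). Of the 6 genes with more, 5 had the same dominant transcript in both libraries, and Vegfa did not. In Kdr the coding transcript Kdr-201 took 95.02% of the gene's TPM in replicate 1 and 94.9% in replicate 2, and the rest went to the retained-intron transcript Kdr-202. Flt4-201 took 98.6% of the gene's TPM in replicate 1 and 98.5% in replicate 2. For these 2 receptors the full-length kinase mRNA was nearly all that was assigned. Only transcripts of the annotation used by the authors could be assigned TPM. GENCODE M21, used here for names, also holds Kdr-203, which has intron 12 of Kdr but no later intron. Its level was therefore not measured. M21 likewise holds further transcripts of Vegfa, Vegfc, Pgf and Nrp1 that could be assigned no TPM.

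Vegfa transcripts were divided in very different ways in the 2 libraries. In replicate 1 the table assigned 33.2% of Vegfa TPM to Vegfa-203, which has exon 6 without exon 7, against 0% in replicate 2. The forms with exons 6 and 7 (Vegfa-207, the cell-bound VEGF188 type) took 1.49% in replicate 1 and 27.1% in replicate 2. The form with exon 7 only (Vegfa-202, the VEGF164 type, the main form in most mouse tissues) took 13.95% in replicate 1 and 1.74% in replicate 2. Both of these are annotated with a coding sequence that starts at an upstream CTG, of 392 codons in Vegfa-207 and 368 in Vegfa-202. Those with neither exon (chiefly Vegfa-201, the freely diffusing VEGF120 type) took 11.2% in replicate 1 and 30.03% in replicate 2. The share of all 5 non-coding transcripts together, 40.2% in replicate 1 and 41.1% in replicate 2, was alike by TPM, but by expected counts it was 19.7% in replicate 1 and 11.6% in replicate 2. Among these, the retained-intron transcripts Vegfa-205 (18.1% in replicate 1 and 5.28% in replicate 2) and Vegfa-206 (7.33% and 21.3%) again exchanged places. Of the other retained-intron transcripts, Vegfa-209 took 6.18% of Vegfa TPM in replicate 1 and 10.98% in replicate 2, and Vegfa-210 took 5.67% and 1.72%. The authors' own interval for Vegfa-203, of unstated level, ran from 76.9 to 91.1 TPM in replicate 1 and reached 3.79 TPM at most in replicate 2, so the difference exceeded the uncertainty given by that quantification. Vegfa-203 is the shortest coding transcript, at 513 nt, and it ends at the stop codon. By expected counts in place of TPM, it took 9.31% of the gene in replicate 1.

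Reads across splice junctions gave another picture of Vegfa. The junction table was deposited once for the series on mm9, names no replicate, and was matched to each gene by the exact chain of its intron lengths. All 9 genes matched 1 place only, with 152 of their 161 annotated introns listed. Out of exon 5, 127 of 174 reads (73.0%, 95% Clopper-Pearson interval 65.7% to 79.4%) went to exon 7 and 47 (27.01%, 20.6% to 34.2%) to exon 8. Not one went to exon 6 among junctions with a score under 0.1, where the same interval reached 2.10%, and 1 read did so when all junctions were taken. The transcripts that join exon 5 to exon 6 nevertheless held 46.3% of the TPM of this choice in replicate 1 and 55.5% in replicate 2.
At the other end of exon 6, the reads lay near the table of replicate 1 for the join to exon 7. For the join to exon 8 they lay near that of replicate 2 and far from that of replicate 1. Into exon 7, 127 of 154 reads came from exon 5 and 27 (17.5%, 11.9% to 24.5%) from exon 6, while transcripts that join exon 6 to exon 7 held 21.6% of the TPM of this choice in replicate 1 and 87.3% in replicate 2. Into exon 8, 335 of 382 reads came from exon 7 and 47 from exon 5. The junction that Vegfa-203 alone uses, from exon 6 to exon 8, was not listed, 0 of 382 reads, with an interval up to 0.961%. The transcripts that use it held 35.4% of the TPM of this choice in replicate 1 and 0% in replicate 2. Exon 5 is 30 nt and exon 6 is 72 nt long, shorter than the reads of 76 nt, and the number of reads differed between the 2 ends of exon 7 as well. How reads across several short exons were placed is not stated in the labels or headers, and its part in these counts was not tested.

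Vegfb has 2 coding forms, set by the acceptor of exon 6. They are printed because both were used at high levels and because the 101 bases between the acceptors shift the reading frame, so that the proteins end differently. Vegfb-201 uses the upstream acceptor and encodes 207 codons, the soluble VEGF-B186 type. Vegfb-202 uses the downstream one and encodes 188 codons, the heparin-binding VEGF-B167 type. Lower case before the capitals is exon 5 (chr19:6985805-6985840, mm10, minus strand), capitals mark the bases between the acceptors (chr19:6985496-6985596), and the lower case at the end is the start of the shared part of exon 6 (chr19:6985466-6985495).
Vegfb-201: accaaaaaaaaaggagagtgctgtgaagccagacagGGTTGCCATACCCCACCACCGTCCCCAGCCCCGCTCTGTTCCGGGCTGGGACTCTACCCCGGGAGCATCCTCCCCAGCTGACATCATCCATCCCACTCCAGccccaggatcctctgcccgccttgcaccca
Vegfb-202: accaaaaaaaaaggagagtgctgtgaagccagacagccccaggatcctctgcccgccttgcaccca
Vegfb-201 was dominant, with 54.6% of Vegfb TPM in replicate 1 and 74.05% in replicate 2, against 44.2% and 25.7% for Vegfb-202. In TPM, Vegfb-202 stood at 31.6 in replicate 1 and 30.1 in replicate 2, whereas Vegfb-201 stood at 39.0 in replicate 1 and 86.7 in replicate 2. As TPM was assigned to transcripts, the difference in Vegfb between the libraries lay in the upstream-acceptor form. The junction reads name no replicate, so they cannot show whether acceptor use differed between the libraries. At the junctions, 485 of 811 reads (59.8%, 56.3% to 63.2%) used the upstream acceptor, between the shares of the transcript tables in the 2 libraries.

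Soluble VEGFR1 arises where the transcript reads on from exon 13 into intron 13 and ends there, before the exons of the membrane-spanning and kinase parts. The end of the soluble transcript and the splice that replaces it are printed to show that difference. Lower case is the end of exon 13 shared by both (chr5:147639225-147639254, mm10, minus strand). Capitals mark, in the first line, the intron bases read by Flt1-203 up to its stop codon (chr5:147639130-147639224) and, in the second, the start of exon 14 in Flt1-202 (chr5:147634464-147634523).
Flt1-203, soluble: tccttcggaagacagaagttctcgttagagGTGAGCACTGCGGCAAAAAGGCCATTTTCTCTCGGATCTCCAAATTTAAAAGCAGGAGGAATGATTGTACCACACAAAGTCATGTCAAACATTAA
Flt1-202, full length: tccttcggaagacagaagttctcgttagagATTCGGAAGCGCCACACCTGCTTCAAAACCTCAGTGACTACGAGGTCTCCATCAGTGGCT
The full-length transcript prevailed in both libraries. Flt1-202, of 1333 codons, took 81.0% of Flt1 TPM in replicate 1 and 75.5% in replicate 2. Flt1-203, of 688 codons, took 19.0% in replicate 1 and 11.1% in replicate 2, a mean of 15.1% ± 5.55 (SD, n = 2), which in level was 1.32 TPM in replicate 1 and 0.77 TPM in replicate 2. The authors' intervals for Flt1-203, 1.15 to 1.47 TPM in replicate 1 and 0.611 to 0.931 TPM in replicate 2, did not overlap, whereas those for Flt1-202, 5.29 to 5.85 and 4.78 to 5.55 TPM, did. The remainder in replicate 2, 13.3% of the gene's TPM, went to the non-coding Flt1-201, which had 0% in replicate 1 and whose own last intron was not listed in the junction table.
The junction reads could not count the soluble form directly, since it is defined by an intron that is not removed. The 12 introns shared by both coding forms had a median of 41.5 reads (13 to 98), and the 17 introns found in the full-length form alone had a median of 28 (12 to 107). The ranges overlapped almost entirely, and single introns of the same set differed more than the sets.

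**Figure D3:**
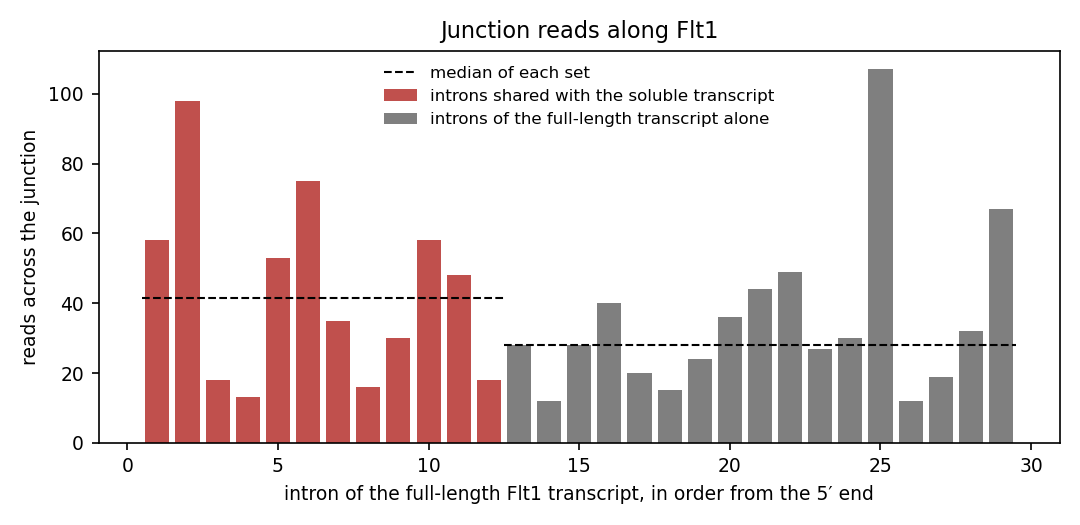
Reads across each of the 29 introns of full-length Flt1 (vertical axis), in order from the 5′ end (horizontal axis), with replicates not told apart. The 12 introns shared with the soluble transcript had a median of 41.5 reads and the 17 that follow had a median of 28 (dashed lines), with wide overlap.

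Nrp2 splits into forms with different membrane-spanning and cytoplasmic ends. Exon 15 can end at either of 2 donors 15 bases apart, and is joined to a near tail (278 coding bases, chr1:62795709-62795986, mm10, plus strand), to a far tail (302 coding bases, chr1:62815333-62815634), or to an extra exon of 51 bases and then the far tail. The line below is exon 15 joined to the start of the near tail, printed because the small donor choice is easily seen in it. Capitals mark the 15 bases between the donors (chr1:62786302-62786316), which the short form leaves out.
Nrp2-201, exon 15 and near tail: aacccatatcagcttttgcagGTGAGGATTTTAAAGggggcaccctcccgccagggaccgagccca
Nrp2-204, with the short donor and the far tail, was the dominant transcript at 47.3% of Nrp2 TPM in replicate 1 and 28.9% in replicate 2. Nrp2-203, which differs from it by the long donor alone, took 0% in replicate 1 and 26.7% in replicate 2. The authors' intervals in replicate 2 were wide, 0.312 to 8.27 TPM for Nrp2-204 and 0.199 to 8.21 TPM for Nrp2-203, so the tables hardly separated these forms there. Nrp2-205, with the short donor and the near tail, was steady at 24.5% in replicate 1 and 25.5% in replicate 2. Nrp2-201, with the long donor and the near tail, took 10.9% in replicate 1 and 16.8% in replicate 2, and Nrp2-202, with the short donor, the extra exon and the far tail, took 15.4% and 1.52%. The junction reads put the near tail first, with 160 of 174 reads (92.0%, 86.9% to 95.5%), and gave the extra exon 14 reads. Not one read joined exon 15 to the far tail directly, with an interval up to 2.10%. Transcripts with that splice nevertheless held 47.6% of the TPM of this choice in replicate 1 and 55.9% in replicate 2. With all junctions taken, 2 of 177 reads did. The short donor had 163 of the 174 reads and the long donor 11.

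**Figure D4:**
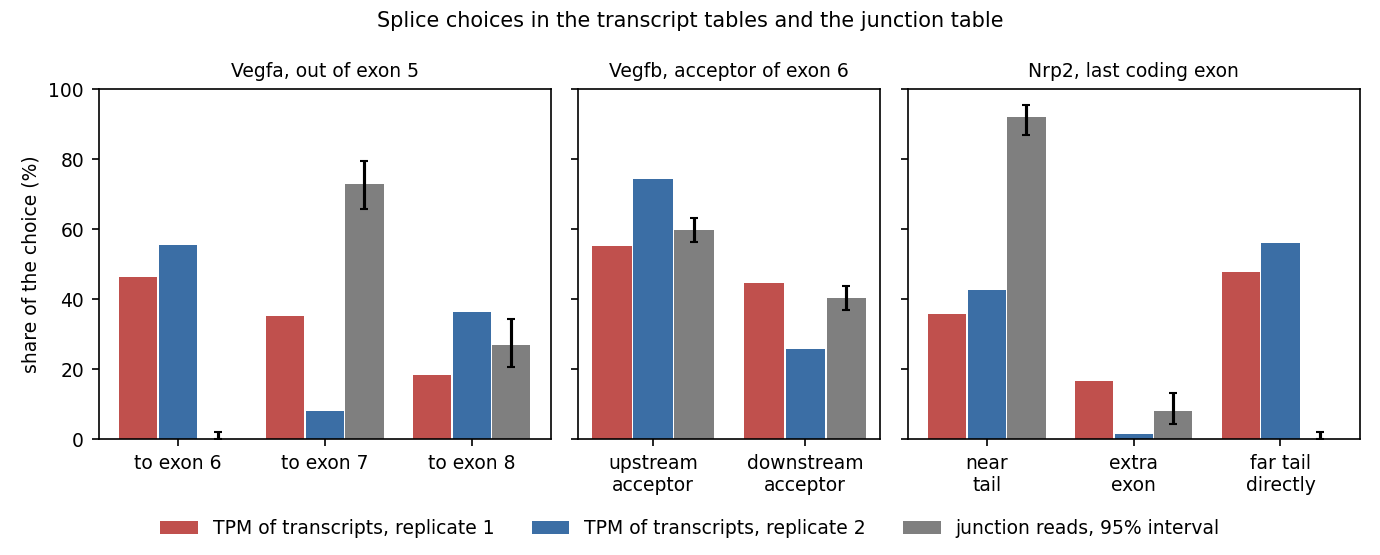
Share in percent (vertical axis) of the alternatives at 1 splice choice each in Vegfa, Vegfb and Nrp2, by TPM of the transcripts that use them in replicate 1 and replicate 2 and by junction reads with 95% Clopper-Pearson intervals. Junction reads gave 0 of 174 to exon 6 of Vegfa and 0 of 174 to the far tail of Nrp2 directly, where the transcript tables held between 46.3% and 55.9%. In Vegfb the junction share of 59.8% lay between the replicates.

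The pathway around these genes was largely expressed. The ratios and calls given for its lists are without removal of the GC trend described above. Of 8 genes for VEGF-D and the processing of VEGF-C and VEGF-D, 7 reached 1 TPM in both libraries. Furin, a protease that cleaves both factors, had 55.2 TPM in replicate 1 and 119 TPM in replicate 2, a log2 count ratio of -1.04 (95% interval -1.08 to -1.01), and was the only one beyond 2-fold, 1 of 7 with a mean of at least 1 TPM, against 18.2% of all genes. The procollagen protease gene Adamts2 had 30.1 and 57.4 TPM in replicates 1 and 2, and the proprotein convertase gene Pcsk7 had 19.5 and 18.0. Vegfd, the other ligand of VEGFR3, had 6.28 TPM in replicate 1 and 6.10 TPM in replicate 2, above Vegfc in both libraries. The median log2 count ratio of the list was -0.04.

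Of 10 genes of oxygen sensing, 9 reached 1 TPM in both libraries. Their products include the hypoxia-inducible factors that raise Vegfa transcription and the hydroxylases that mark those factors for destruction. The hydroxylase gene Egln2 had 67.9 TPM in replicate 1 and 112 TPM in replicate 2, Epas1 (HIF-2α) had 51.8 and 81.1 TPM, Arnt, the partner subunit, 37.1 and 41.8 TPM, and Hif1a 18.6 and 48.3 TPM. Epas1 thus stood above Hif1a in both libraries. In fragments Hif1a differed less than in TPM, with 2949 in replicate 1 and 3446 in replicate 2. Its log2 count ratio was -0.63 (-0.71 to -0.56), and it was not called. The asparagine hydroxylase gene Hif1an, with 26.9 TPM in replicate 1 and 12.04 TPM in replicate 2, was beyond 2-fold higher in replicate 1, at a log2 count ratio of 1.25 (1.18 to 1.32). Ppargc1a, a co-activator known to raise Vegfa in muscle and named here after its values were seen, was the other, with 4.39 and 1.38 TPM in replicates 1 and 2, so that 2 of 9 were called, against 18.2% of all genes. The median log2 count ratio of the list was -0.16.

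All 32 genes of signalling below VEGFR2 reached 1 TPM in both libraries. The MAP kinase kinase gene Map2k2 had 112 TPM in replicate 1 and 266 TPM in replicate 2, Mapk3 (ERK1) 182 and 186 TPM, Rac1 183 and 115 TPM, and Akt1 90.1 and 153 TPM. Beyond 2-fold, 1 gene was higher in replicate 1 and 4 in replicate 2, 5 of 32 in all, against 18.2% of all genes. The first was the GTPase gene Cdc42, with 117 TPM in replicate 1 and 56.2 TPM in replicate 2. The others were Map2k2, the transcription factor gene Nfatc1 (17.1 and 43.0 TPM in replicates 1 and 2), the kinase gene Prkcb (11.3 and 24.1 TPM) and the adaptor gene Shb (10.2 and 23.4 TPM). The median log2 count ratio of the list was 0.04.

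Receptor regulators and neuropilin partners were likewise present. All 14 genes whose products hold, traffic or dephosphorylate VEGF receptors reached 1 TPM in both libraries. Cav1, the caveolin gene, also abundant in adipocytes, had 1476 TPM in replicate 1 and 1219 TPM in replicate 2. Cdh5, the endothelial cadherin gene, had 77.4 and 88.0 TPM in replicates 1 and 2, the integrin gene Itgav 17.0 and 105 TPM, and the endocytic adaptor gene Dab2 59.6 and 42.1 TPM. Calls went by counts: Itgav had 1748 fragments in replicate 1 and 2311 in replicate 2, a log2 count ratio of -0.81 (-0.90 to -0.72), and was not called although its TPM differed more. Only Synj2bp, with 35.6 TPM in replicate 1 and 12.7 TPM in replicate 2, was beyond 2-fold, higher in replicate 1, which makes 1 of 14 against 18.2% of all genes. Of 7 class 3 semaphorin genes 4 reached 1 TPM in both libraries, led by Sema3f (44.0 and 77.3 TPM in replicates 1 and 2), Sema3b (27.5 and 24.2), Sema3g (6.53 and 11.8) and Sema3c (10.1 and 7.38). Of the 5 with a mean of at least 1 TPM, 0 were beyond 2-fold. Of 5 plexin genes 4 reached 1 TPM in both, and Plxnd1, the endothelial plexin gene, led them with 78.1 TPM in replicate 1 and 169 TPM in replicate 2, beyond 2-fold higher in replicate 2 and the only plexin gene called, 1 of 4 against 18.2% of all genes. Plxna1 had 39.8 and 58.3 TPM in replicates 1 and 2, Plxna3 27.8 and 32.2, and Plxna2 7.01 and 4.81.

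**Figure D5:**
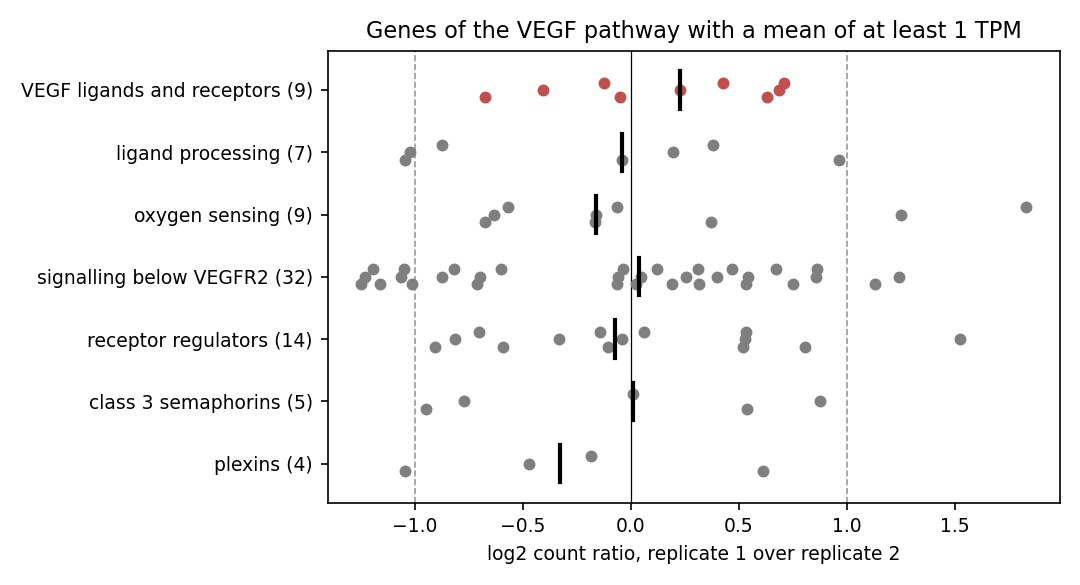
Log2 count ratio of replicate 1 over replicate 2 (horizontal axis) for the VEGF ligands and receptors and for 6 lists of pathway genes with a mean of at least 1 TPM (rows, number of genes in brackets). Points are genes, black bars list medians and dashed lines 2-fold. The 9 members lie inside the dashed lines.

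The tissue label and the cells that carry VEGF receptors were checked by markers. Luminal and basal epithelial markers, 8 of 8 and 5 of 5, reached 1 TPM in both libraries, with Krt19 at 385 and 660.3 TPM and Krt14 at 58.5 and 47.7 TPM in replicates 1 and 2, and so did all 8 white adipocyte markers, led by Pnpla2. All 14 blood endothelial markers did as well and summed to 1160 TPM in replicate 1 and 1784 TPM in replicate 2. Among them Egfl7 had 370.3 TPM in replicate 1 and 350.1 TPM in replicate 2, and Plvap, a gene of fenestrated vessels, 160.5 and 481 TPM. Of the 14, 1 was higher in replicate 1 and 4 were higher in replicate 2 by more than 2-fold, 5 of 14 in all, against 18.2% of all genes. The GC trend was not taken off these calls. The 4 had between 57.8% and 60.9% GC, where the median ratio of all genes was -0.55 at 57.9% and -1.10 at 61.4%. The 1 had 43.6% GC, where that median was 0.81 at 42.9% and 0.68 at 44.4%. The median log2 count ratio of the 14 was -0.23. All 6 lymphatic endothelial markers reached 1 TPM and summed to 258.9 TPM in replicate 1 and 329.7 TPM in replicate 2. Most of that sum was the chemokine gene Ccl21a, with 228.2 TPM in replicate 1 and 308.4 TPM in replicate 2. By count ratio 4 of the 6 were higher in replicate 1, among them Lyve1 (17.8 and 10.7 TPM in replicates 1 and 2), and Ccl21a and the transcription factor gene Prox1 (1.52 and 3.24 TPM) were lower. The median log2 count ratio of the list was 0.52, and none of the 6 was beyond 2-fold, against 18.2% of all genes. Flt4 stood at -0.41 on the same scale, from which the GC trend was not taken off. The 6 markers ran from 42.25% to 55.9% GC, and Flt4 had 56.0%, so the 2 values are not compared at like GC content.
Other tissue marked replicate 1. Its 8 skeletal muscle markers summed to 28320 TPM, against 13.3 TPM in replicate 2, the 5 brown adipocyte markers to 911 against 162 TPM, and the 5 skin keratinocyte markers to 103 against 6.51 TPM. The brown fat gene Ucp1 had 709.9 TPM in replicate 1 and 100.5 TPM in replicate 2, and Zic1 had 12 fragments in replicate 1 and 0 in replicate 2. Muscle and brown fat are tissues that express Vegfa and Vegfb, and the part of this material in the levels of the members was not tested. Pericyte, macrophage and Schwann cell markers, 6, 6 and 4 genes, all reached 1 TPM in both libraries, at summed levels of 185 and 202 TPM, 599 and 865 TPM, and 283 and 230.4 TPM in replicates 1 and 2.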

How the data were processed

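Poly(A) RNA of 2 mammary gland libraries was read from gene and transcript tables, on mm10 with GENCODE M4 (per the notes deposited with them). The authors deposited expected counts, TPM, posterior mean TPM, bounds of TPM and FPKM, and each isoform's percent of its gene, per the file headers. Neither aligner nor quantifier is named in the labels or headers. The deposited junction table, on mm9 and without a header, gives a count of reads per junction and a score of unstated meaning, and junctions with a score under 0.1 were used. Summed expected counts were 56323489 and 42400470 in replicates 1 and 2. Names, coordinates, GC content and sequences came from GENCODE M21 (42462 of 43346 genes named); 30 of the members' 33 transcripts have the same length there, the others being 1 each of Vegfa, Vegfc and Nrp1.

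Expected counts were rounded, scaled by their totals and compared by a Clopper-Pearson interval at 95%, beside all genes with a mean of at least 1 TPM; 97 spike-in entries were left out. Intervals and upper limits of shares cover counting error only. Tested on simulated counts for this comparison, 99% of 200 genes changed 8-fold among 14510 were called, with 0 unchanged genes called. The simulated counts held counting error only, with no other spread between libraries and no GC trend. They checked the calculation and cannot say how often replicates differ, which here was 18.2% of all genes beyond 2-fold. Log2 differences of TPM used a pseudocount of 1. A junction was assigned to an intron only where chromosome, strand, lengths and mutual distances matched, so no coordinate was moved between builds. Transcript classes came from annotated coding sequence. The labels call the libraries stranded and do not state whether counting used strand.

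The members, pathway lists and marker lists were chosen with earlier results of these data known. Named were all members, transcripts at 5% or more of their gene in either library, the 4 highest genes of each pathway list, any pathway gene past 2-fold whose mean reached 5 TPM, and up to 3 genes of a marker list. Alternatives were other scalings, thresholds, pseudocounts, units and junction sets, and each replicate left out. Scaling factors alone came from edgeR 4.0.16 and DESeq2 1.42.0 (R 4.3.3). All else was computed in Python 3.11.15, with pandas 2.3.3, numpy 2.4.6 and scipy 1.17.1, and drawn with matplotlib 3.10.9.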

Additional observations from a re-analysis of the deposited data

How the results depend on the processing

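All 9 members kept a level above 0.5 TPM in both libraries, and 7 were at 5 TPM or more in both. The count of members beyond 2-fold stayed at 0 with edgeR TMM factors, DESeq2 size factors, totals without mitochondrial genes and skeletal muscle markers, and TPM ratios. It was 2, Vegfb and Flt4, both higher in replicate 2, when spike-in totals set the scale, and 1 at a threshold of 1.5-fold, where all genes beyond it numbered 5775 in place of 2635. Spike-in totals moved every log2 count ratio down by 0.76, so that 0 of 9 members were higher in replicate 1, against 5 with total counts. The direction for Flt1, Kdr and Nrp1 depends on this scale, and the intervals of Vegfc and Pgf then held 0. DESeq2 size factors moved it by 0.13 in the same sense, and leaving out mitochondrial genes and muscle markers by 0.17 in the other, after which 7 of 9 were higher in replicate 1. The interval of Nrp2 no longer held 0 with edgeR TMM factors, at -0.12 (-0.19 to -0.05), or with DESeq2 size factors, at -0.18 (-0.25 to -0.11). With DESeq2 size factors the interval of Flt1 did hold 0, at 0.10 (-0.006 to 0.20).

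The median log2 difference of the members lay between 0.13 and 0.31 in the units and pseudocounts tried, with the GC trend taken off and with edgeR TMM factors. It was not computed with spike-in totals, by which the count ratio of every member was below 0. Rescaled without mitochondrial genes and muscle markers, mean summed TPM was 386.5 for ligands, 39.5 for receptors and 52.5 for co-receptors. These sums were 336.7, 34.3 and 45.3 TPM without rescaling, and between single replicates they ran, also without rescaling, from 334.5 to 338.8, 33.2 to 35.4 and 40.4 to 50.2 TPM. Between replicates the ratio of Flt1 to Kdr ran from 0.316 to 0.399, Vegfa's share of ligand TPM from 64.0% to 76.4%, and the ratio of Nrp1 to Nrp2 from 1.56 to 2.54. By expected counts, the mean share of Vegfa was 22.8% for the form with exon 7, against 7.84% by TPM, and 39.4% for the forms with neither exon, against 20.6%. Over coding transcripts without Vegfa-203, an alternative chosen after seeing the data, they were 27.7% and 46.5%. The transcript that was dominant was the same in both libraries for 4 rather than 5 genes by posterior mean percent, since Nrp2 then differed. The soluble Flt1 share ran from 11.1% to 19.0% between replicates and was 13.9% by posterior mean percent.

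No paired analysis was possible because the labels give a single group. Depth limits Vegfc and Pgf, whose lower counts were 151 and 83 fragments. It also limits the junction choices out of exon 5 of Vegfa and at the tail of Nrp2, which rest on 174 reads each. The choices into exon 7 and into exon 8 of Vegfa rest on 154 and 382 reads.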

Other observations

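Several splice junctions inside the members join ends that are not annotated together in GENCODE M21. They were chosen after their values were seen and are given as values. In Nrp1 a donor 21 nt before the annotated end of exon 11 was joined to the usual acceptor by 224 reads, against 1344 reads for the annotated donor, which makes 14.3% of the 2 together. The choice leaves out 7 codons and keeps the frame. The line below shows exon 11 (chr8:128480885-128480989, mm10, plus strand) and the start of the next exon (chr8:128487897-128487926), with the 21 bases that the shorter form leaves out (chr8:128480969-128480989) in capitals.
Nrp1-201, exon 11 and next exon: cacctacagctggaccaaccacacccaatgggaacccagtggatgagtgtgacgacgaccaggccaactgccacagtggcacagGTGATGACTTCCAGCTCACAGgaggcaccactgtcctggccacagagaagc
The transcript tables hold 1 Nrp1 transcript, so this choice cannot be seen in them. In Vegfb, 42 reads skipped exon 2, against 545 and 1070 reads for the introns on either side. In Vegfa, 57 reads used another donor in intron 1 with the usual acceptor, against 878 for the annotated intron, or 6.10% of both. The annotated junction has a score of 0.111 and so lay outside the set used for the choices above. The other members held no unannotated junction with a score under 0.1. Pairs of annotated ends in Kdr, for comparison, had 3703 reads over 29 introns, with 12 reads in 7 unannotated junctions at any score.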
